A study of Mus musculus with 2 samples.

Results

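The 7 genes Penk, Nmb, Cort, Cck, Pcsk1, Scg2 and Crhbp encode neuropeptide precursors and proteins of the regulated secretory pathway, and were followed through the non-neural cells of the mouse choroid and retinal pigment epithelium (RPE). They were picked by symbol from the 32285 genes of the count matrices, with their levels across cell classes already known, so those levels are given as a description with no test. The study dissected choroid-RPE complexes from the eyes of wild-type mice of the ICR strain at 8 weeks of age and made 2 libraries. Each library pooled 1 male and 1 female mouse, and cells were not assigned to a sex or a single animal here. There was no treated or mutant group. Single-cell 3' libraries were made with the Chromium v3.1 kit after digestion in collagenase A for 2 h and in trypsin for 30 min.

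Neuropeptides are cut from longer precursors. In the regulated pathway, prohormone convertases such as the product of Pcsk1 cleave the precursor at pairs of basic residues inside dense-core granules, carboxypeptidases trim the ends, and granins such as secretogranin II (Scg2) take part in forming the granules. The peptides then act on G protein-coupled receptors of nearby cells or nerve endings, and are removed by cell-surface peptidases or held by binding proteins such as the one encoded by Crhbp. These genes are best known from neurons and endocrine cells.

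A cell was a barcode with at least 1000 unique molecular identifiers (UMIs, 1 per captured transcript) from at least 500 genes, no more than 20% of them mitochondrial, which gave 8497 cells in library 1 and 13401 in library 2. The libraries held 91741168 and 149570817 UMIs, the median cell had 7842 and 8253 UMIs, and 31 cell barcodes occurred in both libraries. Each cell was placed in the class whose 3 marker genes had the most UMIs, with a minimum of 5. The classes held 3998 and 6232 fibroblasts (Dcn, Col1a2, Col3a1), 1407 and 2251 melanocytes (Dct, Pmel, Mlana), 304 and 903 RPE cells (Rpe65, Rgr, Rlbp1), and 464 and 609 endothelial cells (Cdh5, Pecam1, Egfl7). They also held 1038 and 1425 pericytes (Rgs5, Kcnj8, Higd1b), 234 and 330 smooth muscle cells (Myh11, Cnn1, Acta2), and 429 and 865 macrophages (C1qa, Csf1r, Cd68). Of 4 further markers per class that took no part in the assignment, all 4 were highest in their own class in both libraries, except that 3 of 4 were for the RPE, where Best1 was not. Levels are in CPM, a gene's UMIs in a class per 1000000 UMIs of that class, and paired values give library 1 first. No filter on low values was applied to the 7 genes, which had between 85 UMIs (Crhbp) and 56374 UMIs (Penk) in the cells of library 1, and between 1032 (Pcsk1) and 124930 (Penk) in those of library 2.

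In both libraries the same class was highest for each gene. Fibroblasts carried Penk and Scg2, endothelial cells carried Nmb, melanocytes carried Cort, and the mural classes, with smooth muscle first and pericytes second, carried Cck and Pcsk1. Crhbp was nominally highest in smooth muscle, but most of its UMIs lay in a few cells with ciliary-like markers. Macrophages and the RPE were the highest class of none of the 7.

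**Figure D1:**
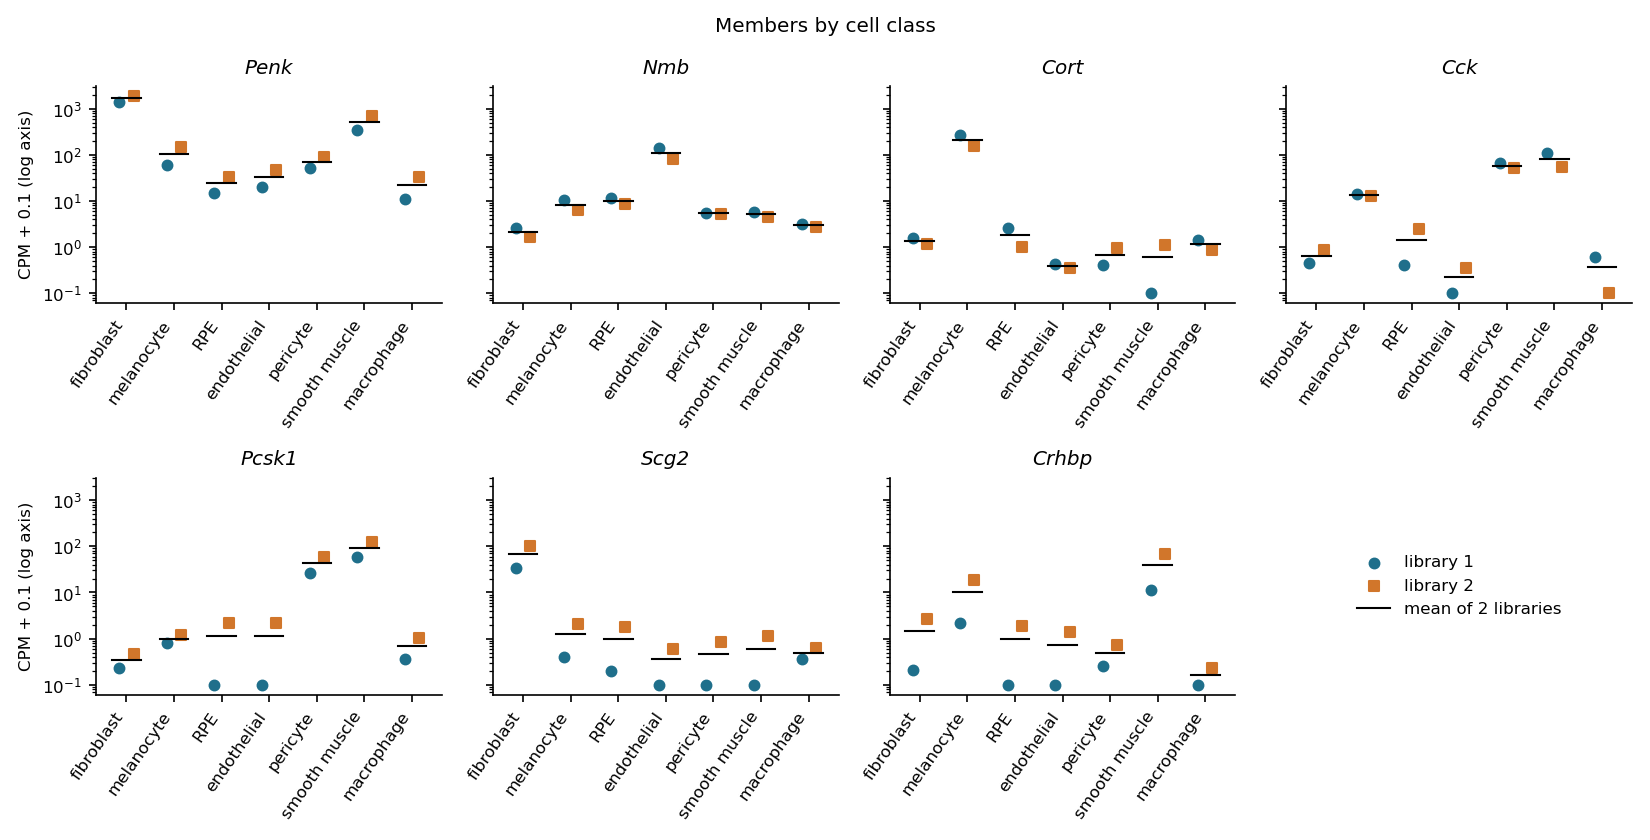
Level of each gene in the 7 cell classes, as CPM on a log axis with a small constant added so that zeros can be drawn; points are the 2 libraries and lines their mean. Each gene has 1 class on top in both libraries, with Cort, Scg2 and Nmb well separated from the next class and Cck nearly level between smooth muscle and pericytes in library 2 only.

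Promoters are shown so that the class that carried a gene can be set beside the cyclic AMP response elements for which neuropeptide genes are known. RefSeq promoter windows of 300 bases around the gene's start (GRCm38.p6) were at hand for 6 of the 7 genes, all but Penk. They were searched on both strands for TGACGTCA (the cyclic AMP response element), TGCGTCA (a variant of it) and TGACTCA (the AP-1 motif), none of which contains another. Of the 4 windows with a match, the stretch that holds it is printed, 5′ to 3′ on the gene's strand, with the match in capitals: 150 bases for Cort and Cck, 119 for Pcsk1 and 30 for Scg2. They lie at chr4:149126764-149126913 on the minus strand for Cort, chr9:121495695-121495844 on the minus strand for Cck, chr13:75089707-75089825 on the plus strand for Pcsk1, and chr1:79440076-79440105 on the minus strand for Scg2.
Cort: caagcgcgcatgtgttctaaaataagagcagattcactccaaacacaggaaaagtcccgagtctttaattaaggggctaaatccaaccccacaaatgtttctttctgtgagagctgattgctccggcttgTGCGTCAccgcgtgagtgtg
Cck: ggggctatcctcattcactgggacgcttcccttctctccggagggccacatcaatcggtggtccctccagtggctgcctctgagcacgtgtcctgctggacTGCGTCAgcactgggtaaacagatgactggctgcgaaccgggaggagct
Pcsk1: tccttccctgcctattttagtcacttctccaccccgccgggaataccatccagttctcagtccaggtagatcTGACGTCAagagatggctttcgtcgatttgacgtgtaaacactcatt
Scg2: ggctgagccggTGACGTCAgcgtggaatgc

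The variant TGCGTCA began 20 bases before the RefSeq start of Cort and 49 bases before that of Cck. The full TGACGTCA began 78 bases before the start of Pcsk1 and 68 bases before the start of Scg2, where it falls inside an exon of a longer Scg2 transcript in GENCODE M21. The windows of Nmb and Crhbp held none of the 3 motifs. Among all 32851 RefSeq windows, 1.79% held TGACGTCA, 2.12% held TGCGTCA, 3.81% held either of them and 5.20% held TGACTCA. The 4 genes with a match were carried by 3 different kinds of cell, melanocytes, mural cells and fibroblasts. A match is a description of the sequence and shows no binding.

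Penk (chr4:4133531-4138819, minus strand, GRCm38) encodes proenkephalin, the precursor of the opioid peptides Met- and Leu-enkephalin. Its coding sequence in GENCODE M21 has 804 bases or 268 codons, and a search for the enkephalin core found 6 copies of Met-enkephalin and 1 of Leu-enkephalin. They are printed because they show the processing sites that Pcsk1 and its relatives cut, with the 15 bases of each copy in capitals and 6 bases on either side in lower case.
Met-enkephalin, codon 100: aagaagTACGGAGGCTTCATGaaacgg
Met-enkephalin, codon 107: aaacggTACGGAGGCTTCATGaagaag
Met-enkephalin, codon 136: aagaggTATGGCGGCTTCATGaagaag
Met-enkephalin, codon 187: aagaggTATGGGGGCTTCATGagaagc
Met-enkephalin, codon 211: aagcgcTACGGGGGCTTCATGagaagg
Leu-enkephalin, codon 231: aagaggTATGGGGGCTTCCTGaagcgc
Met-enkephalin, codon 262: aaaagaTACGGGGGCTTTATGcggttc

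Every copy had 2 codons for a basic residue (lysine or arginine) before it, and 5 of the 7 copies also had 2 after it. The antisense gene A830012C17Rik overlaps Penk on the opposite strand and has its own row in the matrix.

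Fibroblasts had 1430.2 and 1894 CPM of Penk (mean 1662 ± 328, SD, n = 2 libraries), with exact Poisson 95% intervals of 1418 to 1442 and 1883.5 to 1905 that cover counting error only. They held 95.4% and 92.8% of all Penk UMIs in cells. Smooth muscle followed at 343 and 697 CPM, so the fibroblast level was 4.17 and 2.72 times as high. Melanocytes had 61.5 and 149 CPM, pericytes 50.7 and 91.0, endothelial cells 19.9 and 46.0, the RPE 14.6 and 33.6, and macrophages 10.8 and 33.4. The ranges of the 2 libraries overlapped between melanocytes and pericytes, between endothelial cells and the RPE, and between the RPE and macrophages, so no order among these neighbours is read. With Scrublet doublets left out, Penk was 18.4 and 53.5 CPM in melanocytes and 3.17 and 10.7 in the RPE, and in library 2 it was 44.9 CPM in pericytes and 12 in macrophages.

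Free RNA, measured in barcodes with at most 100 UMIs, was rich in Penk at 585 and 713 CPM. After subtraction of a free-RNA share estimated from rod photoreceptor genes, fibroblasts kept 1449 and 1935.5 CPM and smooth muscle 339.6 and 697 CPM. Macrophages then had 0 in both libraries, and pericytes 28.7 and 0 CPM. The share estimated for library 2 pericytes was the largest of any class in either library, and their value of 0 depends on it. The share of cells with at least 1 Penk UMI, after each cell was thinned to 2000 UMIs, was 34.5% and 42.2% of fibroblasts against 1.75% and 2.77% of macrophages, the lowest class, where free RNA can give a UMI. Without thinning the fibroblast shares were 46.2% and 55.1%.

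Within the fibroblast class, Penk differed widely between groups of cells defined by short marker lists (at least 3 UMIs). Cells of the Ltbp2-Comp list, named for a protein of fibrillin microfibrils and for cartilage oligomeric matrix protein, had the most, with 3516 and 3793 CPM and a Penk UMI in 93.7% and 94.2% of 458 and 1251 cells. The Angptl7-Cilp2 list followed with 1813 and 2855 CPM, again with a UMI in 92.5% and 94.4% of its cells. The Cxcl5-Csf3-Il11 list, made of secreted inflammatory factors, had 1509.8 and 1577 CPM.

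The Pi16-Dpt-Clec3b list had 893 and 592 CPM, the Kera-Thbs4 list 794 and 986, and the Crabp2-Ephb1 list 699 and 1014, so these overlapped. The Tfpi2-Tcf21 list was lowest with 396 and 471 CPM. Depth differed between the ends of this order. The median cell had 14755 and 14168 UMIs in the Ltbp2-Comp list against 5359 and 5594.5 in the Tfpi2-Tcf21 list. In between, depth did not follow Penk. The Cxcl5-Csf3-Il11 list had more Penk than the Pi16-Dpt-Clec3b list but a lower median depth, at 7866 and 8412 UMIs against 11056 and 10079. CPM is relative to depth, and the part of depth in the difference was not tested. The Ltbp2-Comp cells held 46.0% and 60.0% of fibroblast Penk UMIs.

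**Figure D2:**
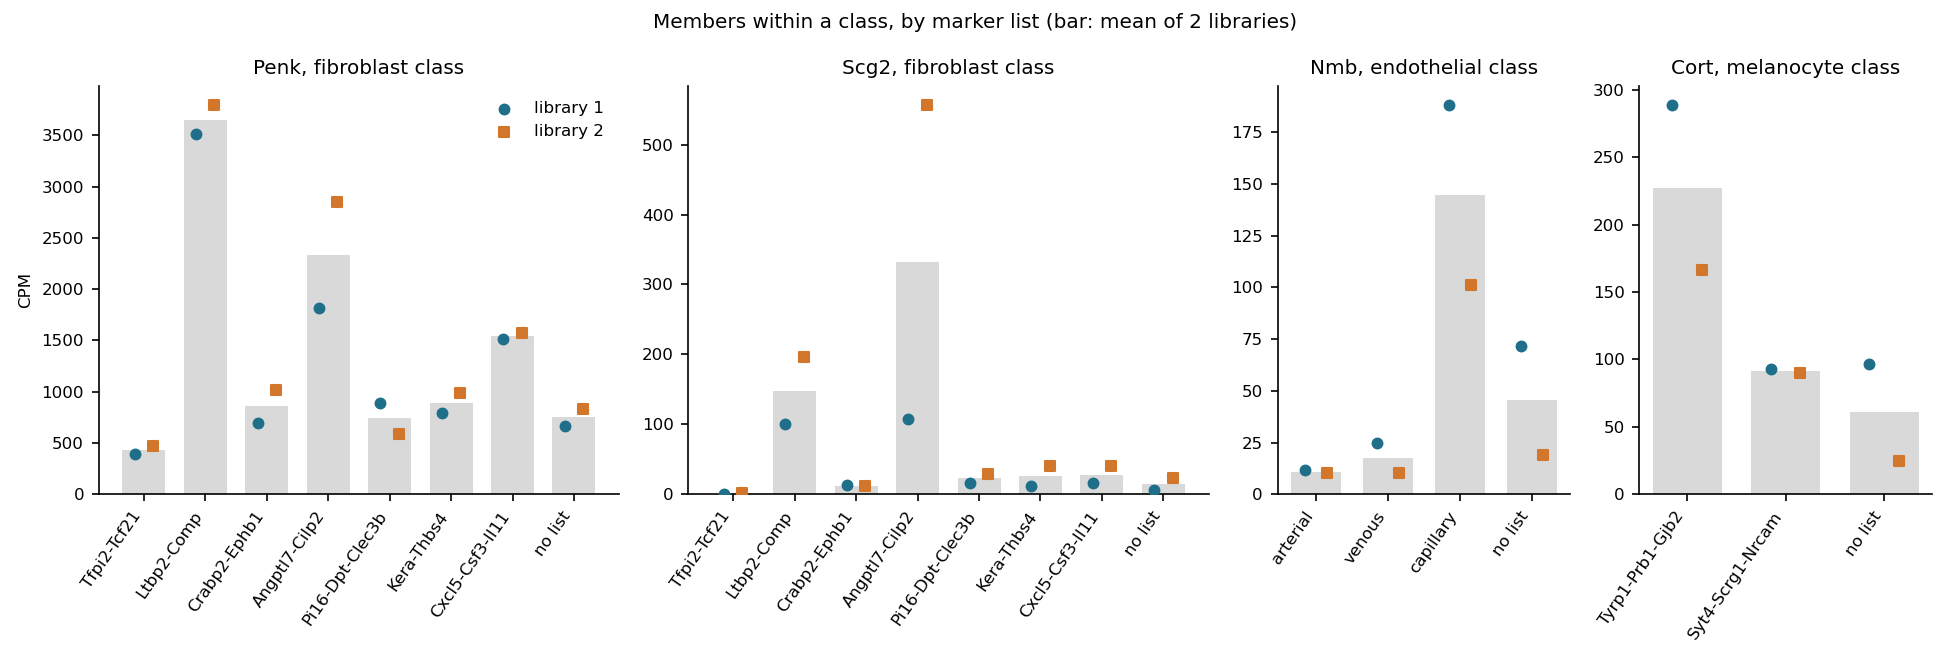
CPM of Penk and Scg2 in fibroblasts, Nmb in endothelial cells and Cort in melanocytes, split by marker list within the class; points are the 2 libraries and bars their mean, on linear axes from 0. The Ltbp2-Comp and Angptl7-Cilp2 fibroblasts are highest for both Penk and Scg2, capillary cells for Nmb and Tyrp1-Prb1-Gjb2 melanocytes for Cort.

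Fibroblasts with at least 2 Penk UMIs (1485 and 2837 cells) were set beside those with none (2149 and 2799 cells) to see which other genes went with Penk; the genes named were chosen after their values were seen. The gene most raised in Penk cells was Scg2 itself, at 63.7 and 155 CPM against 1.5 and 6.30. Igfbp2, an insulin-like growth factor binding protein, had 2249.7 and 1603 CPM against 98.2 and 75.3. Cyp26b1, which breaks down retinoic acid, had 119 and 184 CPM against 8.48 and 9.50.

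The immediate early genes Fos, Fosb, Junb, Egr1, Atf3 and Nr4a1, summed, were lower in the Penk cells, at 3808 and 3426 CPM against 6536 and 5953. The chondrocyte-like list (Chad, Acan, Col9a1) was higher in them, at 993 and 769.6 CPM against 108 and 47.8. Nearly all of this sum was Chad alone, at 985 and 757 CPM against 107 and 46.7, though all 3 genes were detected. The Penk cells were deeper, with a median of 12727 and 12517 UMIs against 6004 and 5862, and the part of these differences in the Penk level was not tested. Across the 14 class and library values, the genes whose level was most like that of Penk among 10527 genes were Ltbp2 (Pearson r = 0.982), Adamtsl3 (0.980) and Tenm3 (0.978), a description in which all values share the same 2 libraries and classes.

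Smooth muscle was the second class for Penk, and part of this sat in cells that also held fibroblast transcripts. Of the smooth muscle cells with at least 2 Penk UMIs (43 and 89 cells), 55.8% and 68.5% had at least 5 UMIs of Dcn, Col1a2 and Col3a1, against 11.3% and 11.1% of those with none. Among the smooth muscle cells with under 5 such UMIs, Penk was 145 and 287 CPM, below the class value but above every class other than fibroblasts in the same library. In melanocytes the same split left 13.6 and 44.0 CPM, and 64.3% and 75.4% of the Penk cells held fibroblast UMIs against 4.54% and 5.69% of cells without Penk. The part of these fibroblast transcripts in the Penk level was not tested. Smooth muscle Penk also lay partly in cells with at least 5 UMIs of Pax6, Pcp4 and Optc, described below with Crhbp. Without these 5 and 9 cells, Penk in smooth muscle was 281 and 534 CPM, below the class value in both libraries. The 145 and 287 CPM above were not filtered for these cells.

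Nmb (chr7:80902227-80905076, minus strand) encodes the precursor of neuromedin B, a bombesin-like peptide. Endothelial cells had 139 and 80.5 CPM (mean 109.8 ± 41.4, n = 2) and held 65.1% and 53.8% of Nmb UMIs. The RPE followed with 11.6 and 8.62 CPM, melanocytes with 10.3 and 6.31, pericytes with 5.51 and 5.25, smooth muscle with 5.59 and 4.41, macrophages with 3.15 and 2.61, and fibroblasts with 2.47 and 1.54. The endothelial level was 12 and 9.35 times that of the RPE, whose range overlapped with that of melanocytes.

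A Nmb UMI was seen in 17.2% and 11.2% of thinned endothelial cells (38.8% and 33.0% without thinning) and in 1.36% and 1.51% of thinned RPE cells. Free RNA held 20.9 and 9.11 CPM of Nmb. In RPE cells with under 5 endothelial-list UMIs, Nmb stayed at 10.5 and 8.16 CPM. Sec11a overlaps Nmb on the same strand, and the sources used here do not give how reads shared by both were counted.

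Among endothelial cells Nmb was highest in the capillary bed. Cells of the capillary list (Car4, Kdr, Esm1; 268 and 380 cells) had 188 and 101 CPM and held 93.2% and 96.7% of endothelial Nmb UMIs. Venous cells (Selp, Vwf, Ackr1; 113 and 121 cells) had 24.8 and 10.4 CPM, and arterial cells (Gja4, Gja5, Sema3g; 22 and 45 cells) had 11.5 and 10.4 CPM from 3 and 4 UMIs. The capillary values of both libraries lay above every venous and arterial value. Capillary cells were also the deepest, with a median of 11100 and 10991 UMIs against 8342 and 7623 in venous cells.

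Endothelial cells with at least 2 Nmb UMIs (140 and 111 cells) had 238 and 209.9 CPM of Dlk1, a Notch-family ligand, against 12.3 and 2.16 CPM in the 284 and 408 cells without Nmb. Only 11.4% and 12.6% of the Nmb cells had a Dlk1 UMI, so few cells carried that level. Cyp26b1, also raised in the Penk fibroblasts, had 1365 and 875 CPM against 267 and 157, with a UMI in 90% and 83.8% of the Nmb cells. Ihh, which encodes Indian hedgehog, had 169 and 73.8 CPM against 18.8 and 14.8. These 3 genes were named after their values were seen, and the median depth of the Nmb cells was 17017.5 and 20412 UMIs against 7073 and 6197.5. Since capillary cells held most endothelial Nmb UMIs, the 2 sets also differ in vessel type, and the part of this was not tested. Genes most like Nmb across the 14 class values were Slc16a13 (r = 0.962), Ift122 (0.948) and Robo4 (0.944), the last an endothelial guidance receptor.

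Cort (chr4:149125034-149126763, minus strand) encodes the precursor of cortistatin, a relative of somatostatin that binds somatostatin receptors. Melanocytes had 266 and 153 CPM (mean 209.4 ± 79.4, n = 2) and held 98.1% and 97.3% of its UMIs. The next class, the RPE, had 2.46 and 0.917 CPM, which puts melanocytes 108 and 167 times higher. Fibroblasts had 1.46 and 1.08 CPM, macrophages 1.31 and 0.782, pericytes 0.315 and 0.857, and endothelial cells 0.334 and 0.254. Smooth muscle had no Cort UMI in library 1 and 3 in library 2. The classes below melanocytes overlapped, and free RNA held 47.8 and 29.6 CPM of Cort, more than any of them.

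Cort was spread over the melanocyte class rather than held by a few cells: 1020 of 1407 and 1356 of 2251 melanocytes had a UMI (72.5% and 60.2%), and after thinning 31.1% and 23.8% did. The 10 cells with the most UMIs held 6.06% and 3.89% of the total. Melanocytes of the Tyrp1-Prb1-Gjb2 list had 288 and 166 CPM, and those of the Syt4-Scrg1-Nrcam list had 92.9 and 90.1 CPM, below the former in both libraries. Median depth also differed, at 12139 and 10814 UMIs against 8147 and 7798.5.

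Melanocytes with at least 2 Cort UMIs (758 and 857 cells) had more Prpmp5 and Prb1, which belong to the proline-rich protein family, than those without (387 and 895 cells). Prpmp5 had 166 and 217 CPM against 29.5 and 33.2, and Prb1 had 310.3 and 271 CPM against 125 and 40.6. Few of the Cort cells carried these levels: 13.5% and 14.7% had a Prpmp5 UMI, and 13.2% and 12% a Prb1 UMI. Prb1 also helped to define the Tyrp1-Prb1-Gjb2 list, which had more Cort. The part of this list and of depth in these differences was not tested. Brca1, which acts in DNA repair, had 179 and 139 CPM against 48.2 and 48.1, with a UMI in 73.9% and 67.8% of the Cort cells. These genes were named after their values were seen. Over the 14 class values Cort was most like Art5 (r = 0.993), Scn8a (0.990), a voltage-gated sodium channel, and Phldb3 (0.988).

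Cck (chr9:121489824-121495694, minus strand) encodes the precursor of cholecystokinin, a gut and brain peptide. Smooth muscle had 109.7 and 54.6 CPM (mean 82.2 ± 38.9, n = 2) and pericytes had 65.0 and 51.4 CPM. These ranges overlapped, and smooth muscle was 1.06 times as high in library 2. With free RNA subtracted the order turned in library 2, with 55.4 CPM in smooth muscle and 61.6 in pericytes. This turn depends on the free-RNA share estimated for library 2 pericytes, the largest of any class in either library. Subtracting that share raised their Cck from 51.4 CPM. The order in library 2 also turned under a stricter class, with 30.9 CPM in smooth muscle and 43.2 in pericytes. That class asked for at least 10 marker UMIs, and at least 2 of every 3 marker UMIs from 1 list. Melanocytes had 14 and 12.8 CPM, above the RPE with 0.308 and 2.34 and fibroblasts with 0.346 and 0.752. Because the classes differ in size, 46.1% and 44.5% of Cck UMIs lay in pericytes, 26.6% and 30.8% in melanocytes, and 24.1% and 14.9% in smooth muscle. Thinned to 2000 UMIs, 13.1% and 9.73% of smooth muscle cells, 3.88% and 4.12% of pericytes and 1.53% and 2.14% of melanocytes had a Cck UMI, against 0 of 453 and 0 of 599 endothelial cells.

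Cck in melanocytes was as high without the cells that held mural transcripts. In melanocytes with under 5 pericyte-list UMIs it was 13.2 and 13.5 CPM, and in those with under 5 smooth muscle-list UMIs 13.3 and 12.3 CPM. The Syt4-Scrg1-Nrcam melanocytes had 33.6 and 22.1 CPM and the Tyrp1-Prb1-Gjb2 melanocytes 11.9 and 11.4 CPM, the reverse of the order for Cort. The former rest on 59 and 82 UMIs in 7 and 20 cells, and the share of cells with a Cck UMI was close in both lists, at 3.59% and 4.59% against 3.49% and 4.97%. Of melanocytes with Cck, 75.0% and 59.3% also had Cort, close to the 72.5% and 60.2% of all melanocytes.

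Pcsk1 (chr13:75089826-75134861, plus strand) encodes prohormone convertase 1/3, the enzyme that makes the first cuts in many precursors. Smooth muscle had 59.9 and 123 CPM (mean 91.4 ± 44.5, n = 2), pericytes 26.3 and 58.9, and the ratio was 2.28 and 2.09. Every other class had at most 2.11 CPM in either library. Under the stricter class smooth muscle had 29.3 and 59.9 CPM and pericytes 9.91 and 43.2, so the level fell but the order held. Pericytes held 53.0% and 53.3% of Pcsk1 UMIs and smooth muscle 37.5% and 35.1%. After thinning a UMI was seen in 6.55% and 12.8% of smooth muscle cells and 2.04% and 4.76% of pericytes, against 0.0253% and 0.0646% of fibroblasts. Fibroblasts, the carriers of Penk, thus had 0.133 and 0.360 CPM of this convertase, from 5 and 22 UMIs. Other convertase genes, Pcsk4, Pcsk5 and Pcsk6, were called higher in fibroblasts in the test of pathway genes given below.

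Cck and Pcsk1 lay in the same kind of mural cell, one that held both marker lists. Mural cells were split, after these levels were seen, into cells with at least 5 UMIs of both the pericyte and the smooth muscle list (462 and 743 cells), the pericyte list only (732 and 901 cells) and the smooth muscle list only (78 and 111 cells). Cck had 141 and 105 CPM in cells with both lists, 29.2 and 2.32 with the pericyte list only, and 7.11 and 0 with the smooth muscle list only. Pcsk1 had 76.8 and 150.1 CPM, 0.495 and 1.35 CPM, and 11.4 and 6.23 CPM in the same 3 groups. Cells with both lists held 80.4% and 98.1% of mural Cck UMIs and 96.5% and 98.5% of mural Pcsk1 UMIs.

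Penk showed another order in the same split. It had 687 and 1356 CPM in cells with the smooth muscle list only, 69.0 and 167 in cells with both lists, and 66.1 and 73.6 in cells with the pericyte list only. In the 48 and 51 cells of the first group that had under 5 fibroblast-list and under 5 ciliary-like UMIs, Penk was 306 and 503 CPM. The whole group with the smooth muscle list only (78 and 111 cells) had 12280.5 and 8274 CPM of the contractile gene Tagln and 75.4 and 96.2 CPM of Notch3, a mural receptor, against 383 and 430.5 CPM of Notch3 in cells with both lists.

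**Figure D3:**
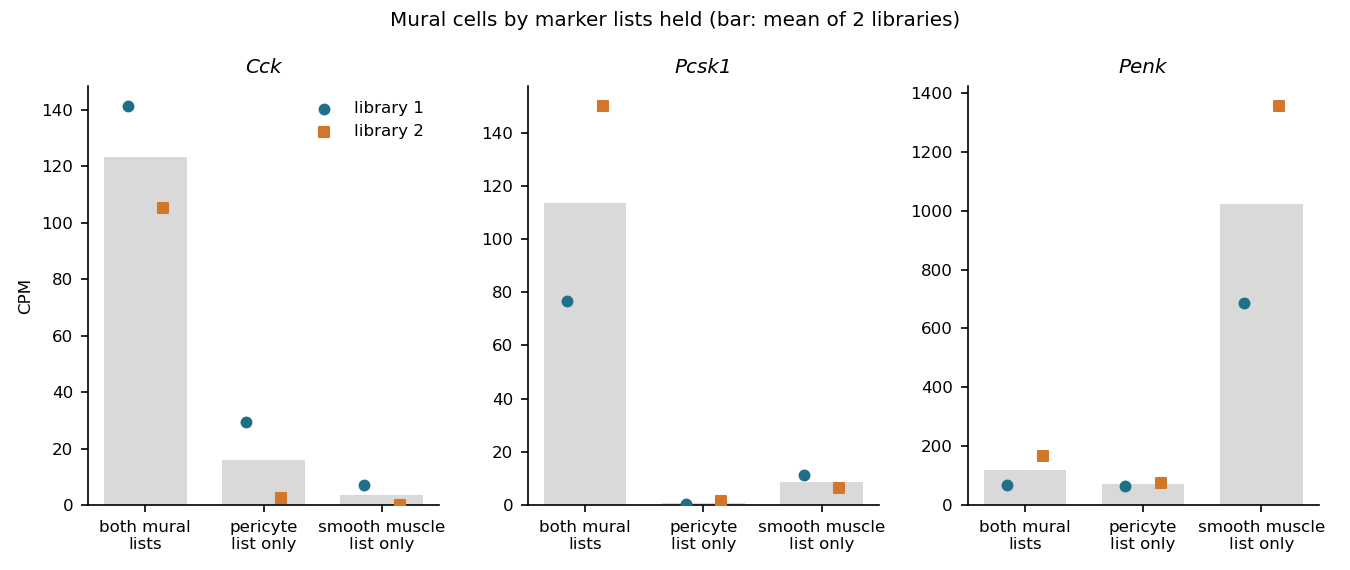
CPM of Cck, Pcsk1 and Penk in mural cells with at least 5 UMIs of both mural lists, of the pericyte list only or of the smooth muscle list only; points are the 2 libraries and bars their mean, on linear axes from 0. Cck and Pcsk1 are highest in cells with both lists in both libraries, and Penk in cells with the smooth muscle list only.

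The part of doublets in the cells with both lists was not tested. Scrublet, a doublet caller, marked 0.649% and 4.58% of them, 0.410% and 2.55% of the cells with the pericyte list only, and 0% and 2.70% of those with the smooth muscle list only. Their median depth of 6940.5 and 6942 UMIs lay between 5127.5 and 5206 with the pericyte list only and 7778 and 8338 with the smooth muscle list only. In both libraries Cck and Pcsk1 were lower in each single-list group than in cells with both.

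Mural cells with Pcsk1 often had Cck too. Of mural cells with a Pcsk1 UMI, 41.6% and 38.0% had a Cck UMI, against 8.88% and 8.26% of all mural cells, and after thinning 27.8% and 25.7% against 5.56% and 5.18%. Penk did not follow: 7.96% and 8.97% of mural Cck cells had Penk, against 9.67% and 15% of all. Mural cells with at least 2 Cck UMIs (74 and 88 cells) had 895 and 517 CPM of Pmvk, an enzyme of the mevalonate pathway, against 109.8 and 85.5 in those without. Gpr20, an orphan receptor, was raised with Cck (159 and 85.7 CPM against 25.4 and 14.5) and with Pcsk1 (196 and 108 against 26.8 and 11.8). Dmp1, a matrix phosphoprotein, had 50.7 and 101 CPM in the 55 and 126 mural cells with at least 2 Pcsk1 UMIs and 6.09 and 9.31 in those without. These genes were named after their values were seen.

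Across the 14 class values Cck was most like Myh11 (r = 0.963), which helped to define the smooth muscle class, Rnaseh2a (0.939) and Rbm24 (0.935). Pcsk1 was most like Dmp1 (0.986), Ctnna3 (0.981) and Map3k20 (0.978).

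Scg2 (chr1:79434669-79440120, minus strand) encodes secretogranin II, a granin of dense-core granules and the precursor of secretoneurin. Fibroblasts had 34.6 and 99.5 CPM (mean 67.1 ± 45.9, n = 2) and held 99.4% and 98.2% of its UMIs. Every other class had at most 1.97 CPM, the value of melanocytes in library 2, and endothelial cells, pericytes and smooth muscle had no Scg2 UMI in library 1. With 464, 1038 and 234 cells, the limit that a count of 0 allows (3 UMIs per library) is 0.5, 0.472 and 1.52 CPM in these 3 classes. Free RNA held 12 and 28.5 CPM.

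Few fibroblasts accounted for Scg2. A UMI was seen in 4.83% and 8.84% of fibroblasts, or 1.82% and 3.91% after thinning, and the 10 cells with the most UMIs held 40.8% and 21.8% of the class total. The Angptl7-Cilp2 fibroblasts had 108 and 556 CPM and the Ltbp2-Comp fibroblasts 101 and 196 CPM, and together these lists, the 2 highest for Penk as well, held most Scg2 UMIs (24.4% and 23.4%, and 54.4% and 59.0%). The Tfpi2-Tcf21 fibroblasts had 0 and 1.61 CPM.

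Scg2 cells were nearly always Penk cells. Of fibroblasts with a Scg2 UMI, 92.7% and 94.2% had a Penk UMI, against 46.2% and 55.1% of all fibroblasts, and after thinning 84.7% and 85.1% against 34.5% and 42.2%. The reverse did not hold, since 9.68% and 15.1% of fibroblasts with Penk had Scg2. Penk was about as common in the 2 lists that held most Scg2 UMIs, whatever the Scg2 of the cell. A Penk UMI was in 93.7% and 94.2% of all Ltbp2-Comp cells and in 92.5% and 94.4% of all Angptl7-Cilp2 cells. The part of these lists in the overlap of Scg2 and Penk was not tested. The 104 and 334 fibroblasts with at least 2 Scg2 UMIs had 493 and 222 CPM of Car3, a carbonic anhydrase, against 48.8 and 42.5 in those without. Comp had 1852 and 1653 CPM against 388 and 438. Their melanocyte-list UMIs were also higher, at 641 and 827 CPM against 207 and 189, and the part of these in the Scg2 level was not tested. The retinal neuron list (Snap25, Syt1, Elavl4, Stmn2) summed to 28.0 and 27.0 CPM in the Scg2 cells against 26.1 and 32.6 in those without, all of it Stmn2 in the Scg2 cells. Scg2 was most like Angptl7 (r = 0.978), Bpifb1 (0.973) and Galr2 (0.969).

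Crhbp (chr13:95431371-95444924, minus strand) encodes a secreted protein that binds corticotropin-releasing hormone and urocortin and holds them from their receptors. It had 85 UMIs in 14 cells of library 1 and 1277 UMIs in 104 cells of library 2. Smooth muscle had 11.2 and 68.9 CPM, from 2 and 8 cells, and melanocytes had 2.12 and 18.4 CPM, from 5 and 42 cells. These ranges overlapped. With a minimum of 10 marker UMIs per cell instead of 5, smooth muscle had 0 and 69.3 CPM of Crhbp, so melanocytes were then the highest class in library 1.

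The cells with Crhbp shared another set of transcripts. Cells with at least 5 UMIs of the ciliary-like list (Pax6, Pcp4, Optc) numbered 48 and 195, and they held 81.2% and 97.7% of all Crhbp UMIs. The class rule had placed 33 and 129 of them among melanocytes and 5 and 9 in smooth muscle, while 4 and 31 fell outside the 7 classes. Of the cells with at least 2 Crhbp UMIs (8 and 74), 5 and 70 had at least 5 ciliary-like UMIs.

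Without the cells of that list, Crhbp in smooth muscle was 0 and 0.363 CPM. The highest class then became melanocytes in library 1 with 0.607 CPM and endothelial cells in library 2 with 0.509 CPM, so no class was highest in both libraries. The other 6 genes kept their class in both libraries.

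**Figure D4:**
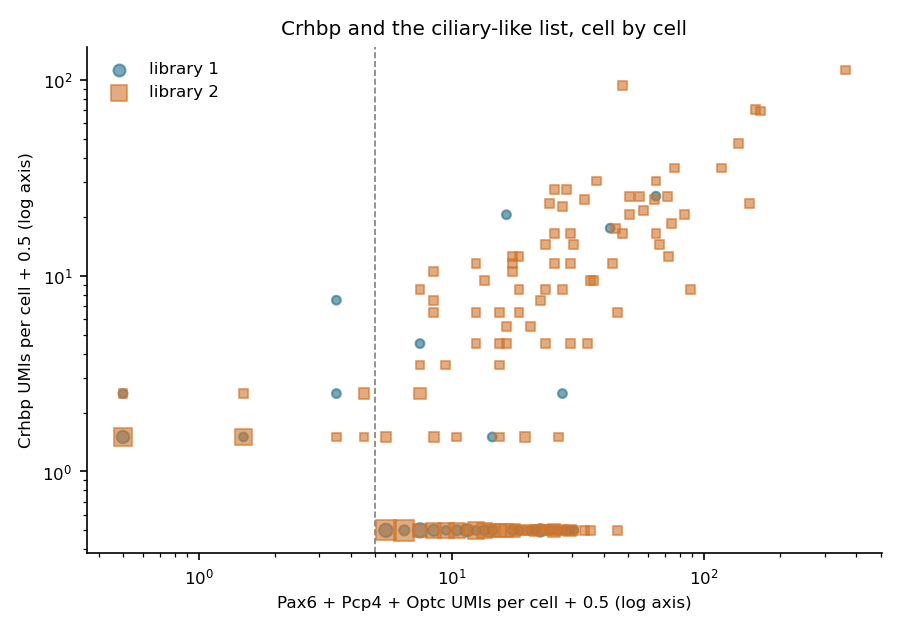
Crhbp UMIs against the summed UMIs of Pax6, Pcp4 and Optc in single cells, on log axes with a small constant added, for cells with at least 1 Crhbp UMI or at least 5 UMIs of the list; larger symbols stand for more cells and the dashed line marks 5. Most cells with several Crhbp UMIs lie to the right of the line, and most come from library 2.

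Cells with at least 2 Crhbp UMIs had 530.1 and 463 CPM of Optc, the opticin gene, against 1.76 and 1.32 in cells without. The retinal neuron list summed to 0 and 6.38 CPM in them against 21.3 and 25.1. Their immediate early genes summed to 3562 and 10571 CPM against 4122 and 3893, so the libraries went opposite ways. Crhbp was most like Optc (r = 0.945), Pcp4 (0.857) and Prpsap1 (0.845).

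The retinal neuron list summed to 39.1 and 45.2 CPM in the Penk fibroblasts against 11.4 and 11.3 in those without, with Elavl4 at 0. In the mural cells with Cck it summed to 4.81 and 1.36 CPM against 6.41 and 5.52, and in those with Pcsk1 to 2.21 and 1.82 against 6.48 and 5.57. In the endothelial cells with Nmb it was 8.93 and 11.1 CPM against 66.5 and 63.3, with Snap25 and Syt1 at 0 in the whole class. For melanocytes with Cort it was 3.46 and 4.04 CPM against 2.60 and 5.07.

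The 2 libraries had the same highest class for each gene but not the same level. Library 2 over library 1, in that class, was 1.32 for Penk, 0.579 for Nmb, 0.577 for Cort, 0.498 for Cck, 2.05 for Pcsk1, 2.88 for Scg2 and 6.17 for Crhbp. With 1 pool of mice per library, animal and library cannot be told apart in these ratios.

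The rest of the pathway was read from 5 lists of 87 genes without the 7, of which 48 had enough counts to test. UMIs were summed per class and library, and each class was tested against the mean of the other 6 with edgeR's quasi-likelihood test, with a call at a Benjamini-Hochberg adjusted p below 0.05 over 15146 genes and a fold change of 1 or more on the log2 scale. Fibroblasts, the carriers of Penk and Scg2, had 22 of the 48 called higher (45.8%, against 17.1% of all genes tested) and 1 lower (6.31% of all genes), with a median log2 fold change of 1.15 against 0.02 over all genes. The 7 precursors called higher there, of 15 tested, were Gal, Grp, Npy, Nts, Oxt, Sst and Tac1. Of 15 processing enzymes, 8 were called higher, among them Pam, which amidates peptide ends, and Cpz (55.7 and 39.1 CPM; log2 fold change 4.79, SE 0.251, adjusted p = 2.71e-08 by edgeR). Of 8 granins and granule proteins, Pcsk1n and Scg3 were called higher and Scg5 lower.

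Endothelial cells, the carriers of Nmb, had 14 of 48 called higher (15% of all genes) and 9 lower (19.5% of all genes). Apln, the precursor of the vascular peptide apelin, had 98.9 and 90.0 CPM there (log2 fold change 6.40, SE 0.238, adjusted p = 5.32e-10 by edgeR). The granule proteins Ica1 (4.39, SE 0.170, adjusted p = 1.07e-11) and Cadps2 (5.08, SE 0.515, adjusted p = 1.26e-06) were also called higher. Cadps2 had only 6.17 and 5.59 CPM. The convertase partner Scg5 and the carboxypeptidase Cpe were called lower.

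Smooth muscle had 12 of 48 called higher (12.4% of all genes) and 3 lower (7.29%), and pericytes had 14 higher (12.9%) and 4 lower (9.26%). Smooth muscle, where Pcsk1 was highest, had 4 of 8 granule genes called higher, Hid1, Ptprn, Scg5 and Vgf, and none lower. Scg5, the chaperone of convertase 2, had 18.8 and 7.81 CPM (log2 fold change 3.05, SE 0.383, adjusted p = 1.67e-05 by edgeR). Cpe, the main carboxypeptidase of the granule, was called higher in smooth muscle, pericytes and the RPE. In pericytes the precursor Cartpt, known from feeding circuits, had 173 and 119.7 CPM (6.27, SE 0.441, adjusted p = 2.21e-05), and the carboxypeptidase Cpm had 75.9 and 156 CPM (3.19, SE 0.126, adjusted p = 5.29e-11).

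Melanocytes, the carriers of Cort, had 6 of 48 called higher (14.7% of all genes) and 6 lower (11.3%), shares near the background. Qpct, which forms pyroglutamate at peptide ends, had 268 and 214 CPM there (log2 fold change 5.24, SE 0.133, adjusted p = 4.06e-13 by edgeR). The RPE had 9 higher (26.3% of all genes) and 18 lower (23.5%), and macrophages 5 higher (19.8%) and 19 lower (21.1%). In the RPE Npb, the precursor of neuropeptide B, was called higher from a low level of 7.90 and 8.16 CPM (6.89, SE 0.402, adjusted p = 1.89e-09). Fitted folds of genes with few counts in the other classes depend on edgeR's prior count.

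Receptors for the peptides were sparse. Of 17 listed receptor genes, 5 had at least 10 UMIs over both libraries (Ackr3, Sstr2, Crhr2, Sstr1 and Sstr4), 8 had 1 to 9, and 4 had none. The classical opioid receptors had 2 UMIs (Oprm1), 8 (Oprk1) and 0 (Oprd1), and the neuromedin B receptor Nmbr had 8. The cholecystokinin receptors Cckar and Cckbr had 3 and 4 UMIs. Sstr1 had 42 and 66 UMIs and Sstr4 had 3 and 11, too few to test. At this depth a level near 0 of a receptor cannot be told from no expression.

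Ackr3, an atypical receptor that takes up opioid peptides, had 81.3 and 43.7 CPM in the RPE (log2 fold change 1.68, SE 0.146, adjusted p = 8.32e-08 by edgeR), and was also called higher in endothelial cells (84.9 and 43.1 CPM) and pericytes (66.6 and 41.3 CPM). Fibroblasts, with Penk, had 56.1 and 34.8 CPM of Ackr3 (log2 fold change 0.94, adjusted p = 9.84e-05), under the fold needed for a call. Sstr2, a receptor for cortistatin and somatostatin, had 16.7 and 17.2 CPM in fibroblasts (5.21, SE 0.262, adjusted p = 5.92e-10), while melanocytes, with Cort, had 0.766 and 1.62 CPM. Crhr2, whose ligands Crhbp binds, had 16.7 and 19.6 CPM in the RPE (6.35, SE 0.301, adjusted p = 2.38e-10) and was also called higher in smooth muscle at 2.54 and 3.73 CPM.

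**Figure D5:**
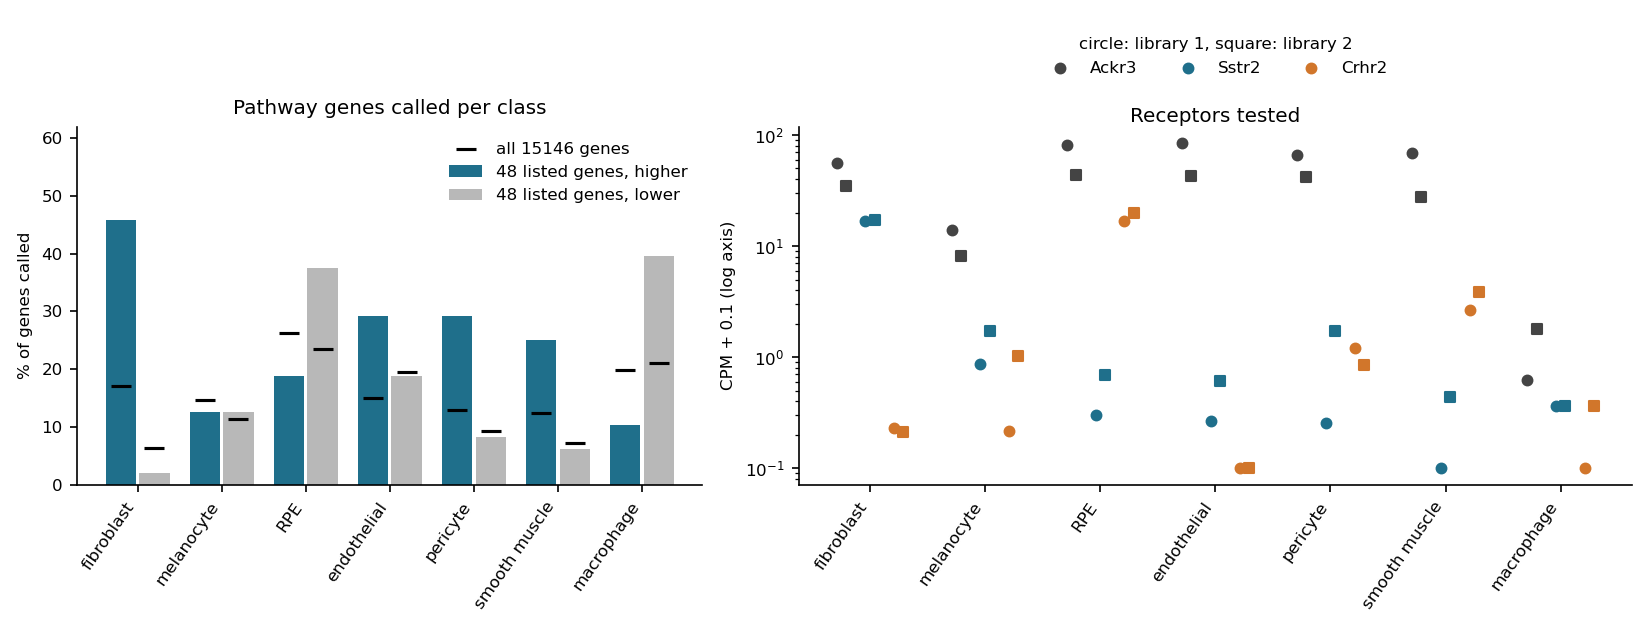
Left, percent of the 48 tested pathway genes called higher or lower in each class, with dashes for the percent of all 15146 genes; right, CPM of Ackr3, Sstr2 and Crhr2 by class on a log axis with a small constant added, circles for library 1 and squares for library 2. Fibroblasts have 45.8% of the listed genes called higher against 17.1% of all genes, Sstr2 is highest in fibroblasts and Crhr2 in the RPE.

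Enzymes that break down peptides had calls in several classes. Of the 7 tested, fibroblasts had 4 called higher (17.1% of all genes), Ace, Anpep, Ece1 and the enkephalin-cleaving neprilysin gene Mme, and none lower (6.31%). Endothelial cells had 3 higher (15% of all genes) and none lower (19.5%), with Ece1 at 472 and 536.5 CPM (log2 fold change 3.33, SE 0.107, adjusted p = 1.32e-12 by edgeR) and Ace at 37.7 and 42.5 CPM (3.01, SE 0.205, adjusted p = 3.92e-08). Pericytes had 3 higher and 2 lower (12.9% and 9.26% of all genes), with Enpep at 104 and 155 CPM (3.48, SE 0.129, adjusted p = 3.04e-11). The RPE had 1 higher and 5 lower (26.3% and 23.5% of all genes), and macrophages 1 higher and 4 lower (19.8% and 21.1%). Melanocytes had 1 higher and 3 lower (14.7% and 11.3%), and smooth muscle 1 higher and 1 lower (12.4% and 7.29%).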

How the data were processed

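The authors deposited raw UMI counts per gene and barcode for both libraries, made with Cell Ranger on mm10. The release is 4 per the file headers, whereas the submitters' processing notes name 2.1.1. The gene annotation behind the counts and the strand setting are not given in the sources used here. Positions came from GENCODE M21 (GRCm38), which held 32235 of the 32285 gene IDs, and promoter windows from RefSeq. Cells, classes and CPM were made as described above. The 7 genes, the class markers and the pathway lists were chosen with earlier results of these data known. Scrublet doublets were 214 and 706 cells and were kept, and barcodes with at most 100 UMIs, taken as free RNA, held 4.90% and 4.11% of all UMIs.

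Counts summed per class and library went into edgeR 4.0.16 under R 4.3.3, with TMM scaling, its default filter on low counts and the library as a block, since the 7 classes of a library come from the same mice. With that block, a shift between the 2 pools of mice that all classes share is taken out. The p-values thus measure how far class differences disagree between these 2 pools, with the estimate of spread shared by the 7 classes. On simulated counts for fibroblasts against the other classes (14083 genes), 100 of 100 genes changed 4-fold and 50 of 100 changed 2-fold were recovered, with 1 false call. A 2-fold change lies at the cutoff for a call, so the 50 of 100 says little about power. The simulation gave all classes the same profile and all genes the same spread, and changed only genes with many UMIs. It therefore does not cover genes with few counts. DESeq2 1.42.0 was an alternative. Genes named beside the 7 were, per pathway list, the 3 called higher with the largest fold change, receptors with at least 10 UMIs, and the 3 genes most alike per member by Pearson r of log2(CPM + 1) among genes with at least 10 CPM in a class. Cells tied between classes (26 and 32) were left out of the 7 classes. One marker list of cells outside the 7 classes is not reported here.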

Additional observations from a re-analysis of the deposited data

Results flagged for a closer look

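Cells outside the 7 classes took no part in the levels by class, though some are among the Crhbp and ciliary-like cells described above. Among them, 2 of the 7 genes had more than 3 UMIs, the limit that a count of 0 allows, in both libraries within the same group of cells. Penk had 108 and 60.9 CPM in the 385 and 409 cells assigned to no list, which can include cells tied between lists. In the ciliary-like list outside the classes, which held 3 and 21 cells, Penk had 1228 and 3735 CPM and Crhbp had 1842 and 1829 CPM. Of the 21 such cells in library 2, all 21 had a Penk UMI and 20 had a Crhbp UMI, whereas the 3 cells of library 1 gave 14 and 21 UMIs. Free RNA held 585 and 713 CPM of Penk and 6.45 and 16.3 CPM of Crhbp, and its part in these values was not tested.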

How the results depend on the processing

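With a minimum of 10 marker UMIs, a stricter class, a minimum of 2000 UMIs, Scrublet doublets left out, free RNA subtracted, or the mean of each cell's CPM, the level in the highest class moved by less than 1 SD in all but 2 cases: Penk in fibroblasts was 1157 CPM as a mean over cells, and Pcsk1 in smooth muscle 44.6 CPM under the stricter class. For Crhbp, whose SD of 40.8 CPM exceeds its mean, this says little. Cck in smooth muscle was 45.8 CPM under the stricter class against 82.2, a move within its SD. With 2 libraries, leaving out either gives the value of the other, so it tests nothing for these levels. Without thinning, the shares of cells with a UMI were 50.7% (Penk), 35.9% (Nmb), 66.4% (Cort), 17.2% (Cck), 17.9% (Pcsk1) and 6.83% (Scg2), against 38.4%, 14.2%, 27.5%, 11.4%, 9.66% and 2.86% with it. All 7 genes kept 1 highest class in both libraries at 2000 UMIs, without doublets and as a mean over cells. The number was 6 with 10 marker UMIs (all but Crhbp) or free RNA subtracted (all but Cck), 5 under the stricter class (all but those), and 6 without the ciliary-like cells, an alternative added after seeing the data. Penk in smooth muscle without cells of the fibroblast list, also added then, was 216 CPM against 520.0.

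Of the 14 counts of pathway genes called, those that moved by more than 1.5 times were fibroblast lower (1; 0 under the stricter class, 2 with DESeq2), melanocyte higher (6; 10 with no filter on low counts), melanocyte lower (6; 10 without doublets) and smooth muscle lower (3; 7 under the stricter class). With 1 library left out each class is 1 sample, so counts rest on the fold alone, with no test: fibroblast lower 2 to 3, melanocyte lower 10 to 16, endothelial lower 16 to 18, pericyte lower 7 to 7 and smooth muscle lower 8 to 14. With no replicate block, all 14 counts stayed within 1.5 times, with 21 fibroblast genes higher. Few UMIs limit the receptors, and few cells limit Crhbp.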
